A study of Mus musculus with 2 samples.

Results

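Granzymes and perforin are the proteins that killer lymphocytes hold in their granules, and 10 of their genes were followed here through tumour-infiltrating immune cells of the mouse: Gzma, Gzmb, Gzmc, Gzmd, Gzme, Gzmf, Gzmg, Gzmk, Prf1 and Nkg7. They were taken by symbol from the 32285 gene rows of the count table, and each of the 10 had 1 row. The cells were CD45+ immune cells sorted from digested tumours of C57BL/6 mice, as 1 library from Ythdf2 KO tumours and 1 library from WT tumours, sequenced with a droplet kit that reads transcripts at their 5′ end. Ythdf2 encodes a reader protein that binds RNA carrying the m6A mark and promotes its decay. The labels speak both of Ythdf2-KO tumours and of conditional knockout mice, so the cells that lost Ythdf2 are not settled by them, and the tumour model, the age and the sex of the mice, and the number of animals per library are not given in the sources used here. The deleted part of Ythdf2 is not given either, so the Ythdf2 level in these cells checks nothing. Its level, in UMIs per 1000000 UMIs of the cells pooled (CPM), was 46.1 in the Ythdf2 KO library and 48.5 in the WT library over all analysed cells. With 1 library per genotype there is no replicate check. No test was possible, library and genotype cannot be told apart, and each interval below is an exact 95% interval that covers counting error only.

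Killer lymphocytes store granzymes, which are serine proteases, together with perforin in secretory granules and release both onto a bound target cell. Perforin opens the target membrane, granzymes enter through the pores, and their substrates decide how the target dies. Natural killer (NK) cells and CD8 T cells are the best-known carriers, and mice hold a run of granzyme genes, Gzmc to Gzmg, that have no human gene of the same name.

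The members sit at 4 places of the genome (GRCm38). Gzmb, Gzmc, Gzmf, Gzmg, Gzmd and Gzme lie in 1 cluster on the minus strand of chromosome 14, in a stretch of 145 kb from 56117626 to 56262260. Gzma and Gzmk lie together on the minus strand of chromosome 13, within 113093825 to 113225908. Prf1 lies on the plus strand of chromosome 10 at 61297833 to 61304680, and Nkg7 on the plus strand of chromosome 7 at 43437073 to 43438249. Every member is annotated as protein coding, and the count table identifies them as Gzma (ENSMUSG00000023132), Gzmb (ENSMUSG00000015437), Gzmc (ENSMUSG00000079186), Gzmd (ENSMUSG00000059256), Gzme (ENSMUSG00000022156), Gzmf (ENSMUSG00000015441), Gzmg (ENSMUSG00000040284), Gzmk (ENSMUSG00000042385), Prf1 (ENSMUSG00000037202) and Nkg7 (ENSMUSG00000004612). The 6 promoters of the chromosome 14 cluster are printed here because their genes divide into Gzmb and a Gzmc to Gzmg group in the counts that follow. Each window holds 300 bases of RefSeq (GRCm38.p6), from 250 bases before the annotated start to 50 after it, read 5′ to 3′ along the gene. Capitals mark matches on either strand to the RUNX motif TGTGGT, the AP-1 motif TGANTCA and the cyclic AMP response motif TGACGTCA.
Gzmb, chr14:56262285-56262584, minus strand: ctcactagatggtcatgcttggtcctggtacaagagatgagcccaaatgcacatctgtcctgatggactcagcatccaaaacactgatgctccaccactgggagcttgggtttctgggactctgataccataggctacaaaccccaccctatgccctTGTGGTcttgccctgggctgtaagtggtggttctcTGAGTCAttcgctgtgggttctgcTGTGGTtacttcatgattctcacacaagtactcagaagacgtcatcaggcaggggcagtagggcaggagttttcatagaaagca
Gzmc, chr14:56234608-56234907, minus strand: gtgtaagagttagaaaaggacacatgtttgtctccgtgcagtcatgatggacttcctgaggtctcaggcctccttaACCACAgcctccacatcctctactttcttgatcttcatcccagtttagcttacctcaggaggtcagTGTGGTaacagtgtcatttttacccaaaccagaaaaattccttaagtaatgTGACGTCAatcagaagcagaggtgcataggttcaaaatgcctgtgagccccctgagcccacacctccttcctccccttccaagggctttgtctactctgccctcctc
Gzmf, chr14:56211358-56211657, minus strand: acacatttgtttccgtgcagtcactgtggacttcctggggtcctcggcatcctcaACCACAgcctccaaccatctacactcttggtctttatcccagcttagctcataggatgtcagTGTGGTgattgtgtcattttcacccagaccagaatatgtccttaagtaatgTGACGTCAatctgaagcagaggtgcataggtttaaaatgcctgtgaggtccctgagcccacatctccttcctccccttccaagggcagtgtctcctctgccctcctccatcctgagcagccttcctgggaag
Gzmg, chr14:56159530-56159829, minus strand: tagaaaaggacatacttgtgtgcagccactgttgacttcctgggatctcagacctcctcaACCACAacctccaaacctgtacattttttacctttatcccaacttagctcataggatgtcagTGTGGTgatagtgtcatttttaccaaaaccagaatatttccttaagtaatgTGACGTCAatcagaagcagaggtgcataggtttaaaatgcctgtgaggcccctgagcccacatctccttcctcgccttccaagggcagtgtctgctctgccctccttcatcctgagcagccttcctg
Gzmd, chr14:56132544-56132843, minus strand: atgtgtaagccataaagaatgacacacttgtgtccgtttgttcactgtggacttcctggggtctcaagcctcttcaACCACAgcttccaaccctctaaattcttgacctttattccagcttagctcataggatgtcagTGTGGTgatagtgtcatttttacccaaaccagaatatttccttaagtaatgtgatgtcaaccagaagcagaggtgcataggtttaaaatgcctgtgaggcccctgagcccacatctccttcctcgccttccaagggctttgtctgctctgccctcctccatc
Gzme, chr14:56120576-56120875, minus strand: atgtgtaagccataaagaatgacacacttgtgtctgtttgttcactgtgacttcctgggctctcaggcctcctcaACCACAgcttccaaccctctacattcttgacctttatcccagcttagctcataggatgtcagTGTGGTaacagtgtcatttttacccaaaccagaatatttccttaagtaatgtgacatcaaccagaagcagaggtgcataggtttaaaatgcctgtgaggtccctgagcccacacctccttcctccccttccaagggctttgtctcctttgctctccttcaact

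All 5 promoters from Gzmc to Gzmg held the RUNX letters at 2 places, the first on the minus strand and the second on the plus strand of the gene. The starts of the pair stood 62 bases apart in Gzmd, Gzme, Gzmf and Gzmg and 66 bases apart in Gzmc. Gzmb also held the letters at 2 places, 59 bases apart, but both on the plus strand. Of 32851 promoters in the RefSeq table, 16.8% held the RUNX letters and 1.81% held them at 2 or more places, while 9 of the 10 members held them, Gzmk being the exception. The Gzmk window, 113180916 to 113181215, lies inside its annotated gene, 113171608 to 113225908, so the outer end of that gene was not searched. The 5 promoters from Gzmc to Gzmg are alike in sequence, so their matches are not separate cases against these shares. The cyclic AMP response letters stood downstream of that pair in Gzmc, Gzmf and Gzmg, against 1.79% of all promoters. Gzmd and Gzme carried that motif at the same place with 1 base changed, C4T in Gzmd and G5A in Gzme, counted from 1 at the first letter of TGACGTCA. Gzmb held a near match too (T1A), just after its RefSeq start. The gene coordinates given above put the start of Gzmb at 56262260, downstream of its whole window. By that start the near match lies before the gene. A window with at most 1 base changed was found in 12.5% of all promoters. The AP-1 letters were found in Gzmb alone of the 10 members, against 7.81% of all promoters. Gzmk and Nkg7 held the T-box letters GGTGTGA (3.98% of all promoters), and Gzmb and Nkg7 held the STAT letters TTCNNNGAA (8.30%). A match is only a string of letters, and binding was not measured.

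The promoters within the Gzmc to Gzmg group were 74.6% to 93.4% identical in pairwise alignment, and each was 46.8% to 51.9% identical to that of Gzmb. The transcripts showed the same division, at 69.9% to 90.4% within the group and 48.1% to 49.9% against Gzmb. Of all windows of 100 bases along the longest transcript of each member, only 2 windows, shared by Gzmd and Gzmg, were found in another gene.

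The Ythdf2 KO library held 16312 barcodes with 134066610 UMIs (unique molecular identifiers, 1 per captured RNA molecule), and the WT library held 20886 barcodes with 168912853 UMIs. After filters on depth, mitochondrial share and doublets, 14576 and 18782 barcodes were analysed, with medians of 5617 and 5554 UMIs in the deposited barcodes, and 101 barcode sequences occurred in both libraries. Cells were gated on marker UMIs that include no member. The NK gate took barcodes with NK receptor genes and without T cell genes, the CD8 T gate took T cell genes with Cd8a or Cd8b1, and the other T gate took T cell genes without them. The NK gate held 1429 Ythdf2 KO and 2425 WT cells, or 9.80% and 12.9% of the analysed cells. The CD8 T gate held 152 and 147 cells, and the other T gate 613 and 846. Ncr1, an NK receptor gene, reached 341.5 and 329.8 CPM in the NK gate, where the CD3 genes were at 0 by the gate's own rule. The monocyte and macrophage marker genes summed to 113.0 CPM in Ythdf2 KO and 113.4 CPM in WT NK cells, to 257.5 and 322.0 CPM in CD8 T cells, and to 201.9 and 197.4 CPM in other T cells, while they reached 9134 and 9862 CPM in the monocyte/macrophage gate. Of the analysed barcodes, 50.9% and 47.8% fell into no gate.

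Members made up 4.27% of all UMIs in Ythdf2 KO and 4.04% in WT NK cells, 1.88% and 1.37% in CD8 T cells, and 2.18% and 1.999% in other T cells. In the monocyte/macrophage gate, whose cells are not known to make these genes, they made up 0.0272% of UMIs in the Ythdf2 KO library and 0.0539% in the WT library. Except for Gzmk, which was too rare to set a ratio, each member there stood at 0.467% to 0.935% of its NK level in the Ythdf2 KO library and at 1.21% to 1.65% in the WT library. The lowest of these shares was that of Gzmg in the Ythdf2 KO and of Gzmd in the WT library, and the highest was that of Gzmb in both. All 9 of these members were lower in the Ythdf2 KO than in the WT monocyte/macrophage gate, at ratios of 0.455 to 0.592. Levels and shares of cells at or below those of this gate are read as background.

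**Figure D1:**
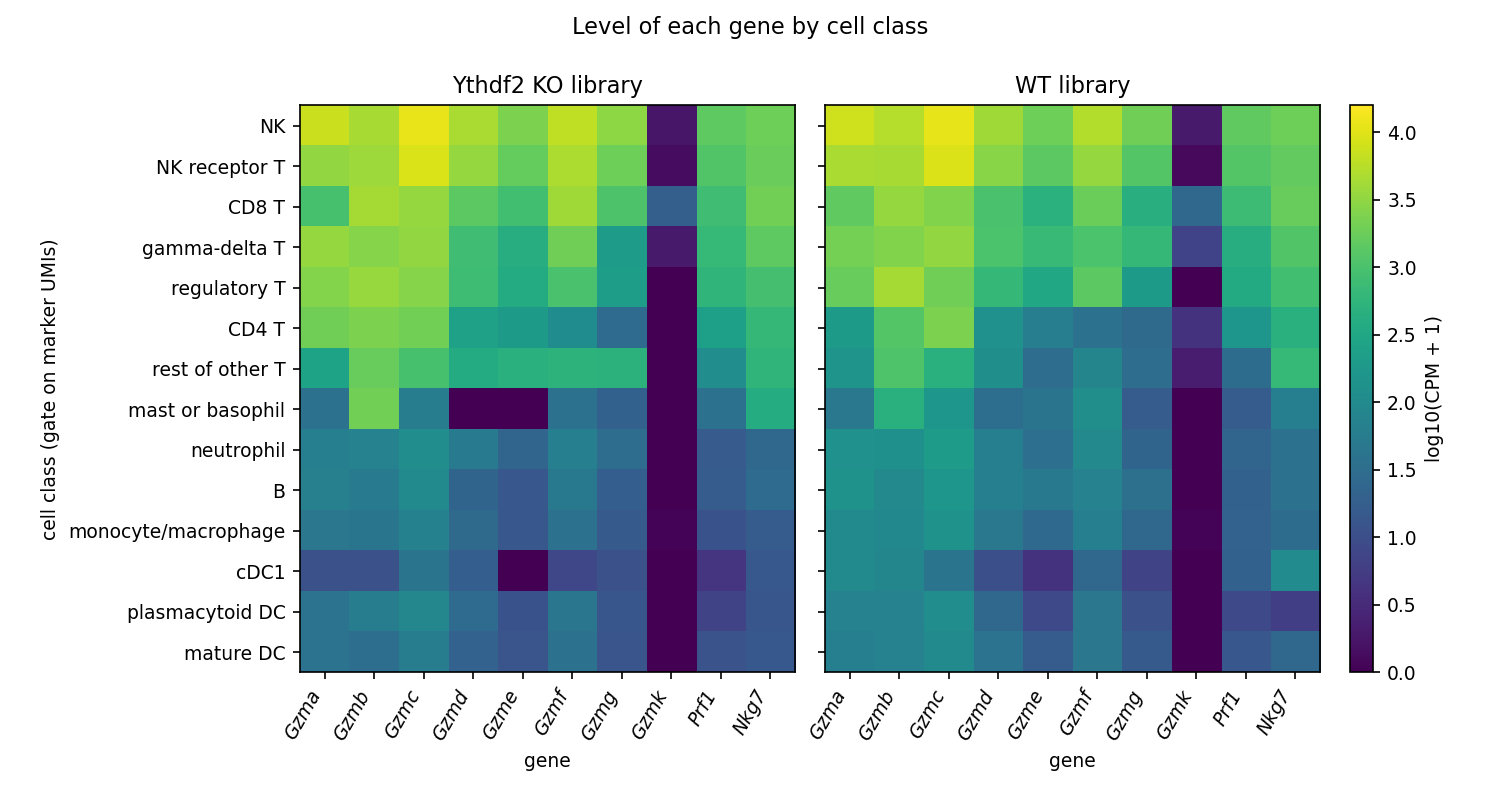
Level of each member (columns) in each cell class (rows), as log10 of CPM plus 1, with the Ythdf2 KO library on the left and the WT library on the right. The NK row and the row of T cells with NK receptor genes are bright for every member except Gzmk, T cell rows are intermediate, and the rows of other cell types are darker, with Gzmb and Nkg7 in mast cells or basophils and Nkg7 in WT cDC1 cells standing above their surroundings.

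Among the classes, NK cells held the highest level of 8 members in both libraries: Gzma, Gzmb, Gzmc, Gzmd, Gzme, Gzmf, Gzmg and Prf1. Gzma, a trypsin-like granzyme, was at 7231 CPM in Ythdf2 KO and 7733 CPM in WT NK cells. Gamma-delta T cells and T cells with NK receptor genes came next in the Ythdf2 KO library, at 3382 and 3242 CPM with overlapping intervals, whereas in the WT library T cells with NK receptor genes (4704 CPM) stood clear of gamma-delta T cells (2087 CPM). CD8 T cells were poor in Gzma, with 936.4 CPM in the Ythdf2 KO and 1499 CPM in the WT library, which is 12.95% and 19.4% of the NK level.

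Gzmb, the granzyme that cleaves caspases and Bid, spread over more classes than Gzma. It was at 4402 CPM in Ythdf2 KO and 5479 CPM in WT NK cells. CD8 T cells reached 4327 CPM in the Ythdf2 KO library, where the interval overlapped that of NK cells, and 3426 CPM in the WT library, where it did not. Regulatory T cells, gated by Foxp3, were at 3603 CPM in 38 Ythdf2 KO cells and 4270 CPM in 65 WT cells, or 81.8% and 77.9% of the NK level. In these cells the median member stood at 23.5% and 21.5% of its NK level, so Gzmb was high relative to the other members.

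Gzmc, the member of the rodent group nearest to Gzmb on the chromosome, was at 11522.8 CPM in Ythdf2 KO and 10901.0 CPM in WT NK cells and at 9284 and 9357 CPM in T cells with NK receptor genes. CD8 T cells had 3456 and 2555 CPM, and CD4 T cells, with 32 and 51 barcodes, 1991 and 2354 CPM. In the 32 Ythdf2 KO CD4 T cells 1 barcode held 92.0% of the Gzmc UMIs. Gzmf was at 6262 CPM in Ythdf2 KO and 5149 CPM in WT NK cells, and CD8 T cells reached 63.4% and 34.8% of that. Gzmd, Gzme and Gzmg followed the order NK cells, T cells with NK receptor genes, then CD8 T cells in the Ythdf2 KO library, while in the WT library gamma-delta T cells stood at or above CD8 T cells for all 3 genes, with overlapping intervals for Gzmd. Summed over the group, Gzmc to Gzmg took 2.78% and 2.38% of all UMIs in NK cells, 1.07% and 0.625% in CD8 T cells and 1.35% and 1.15% in other T cells.

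Gzmk, a trypsin-like granzyme that neighbours Gzma, had a different pattern from the other 9. Its level was 17.3 CPM in Ythdf2 KO CD8 T cells (33 UMIs) and 25.4 CPM in WT CD8 T cells (45 UMIs), against 0.795 and 0.990 CPM in NK cells. It was the only member with its highest level in CD8 T cells in both libraries. In the other T gate it had 2 UMIs in the Ythdf2 KO library and 12 in the WT library.

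Prf1, which encodes perforin, was at 1448 CPM in Ythdf2 KO and 1489 CPM in WT NK cells, at 1136 and 1202 CPM in T cells with NK receptor genes, and at 806.1 and 755.0 CPM in CD8 T cells. Gamma-delta T cells came next, with 650.3 and 420.1 CPM, and did not differ beyond the counting intervals from regulatory T cells (552.8 and 372.2 CPM). Nkg7, a granule membrane protein needed for granule release, reached 1867 CPM in Ythdf2 KO and 1892 CPM in WT NK cells, and 1992 and 1702 CPM in CD8 T cells, so NK and CD8 T cells changed places between the libraries.

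T cells with NK receptor genes had a median member level of 77.6% of NK cells in the Ythdf2 KO library and 76.0% in the WT library. This class holds barcodes with both T and NK genes, and droplets with 1 cell of each type would land there too. Their median depth was 7778 and 10734 UMIs, against 9299 and 9824 UMIs in NK cells, and the part of mixed droplets in their levels was not tested. Outside lymphocytes, Gzmb reached 2009 CPM in 11 Ythdf2 KO mast cells or basophils and 460.7 CPM in 30 WT ones, which is 45.6% and 8.41% of the NK level. Nkg7 stood at 21.3% and 3.36% of the NK level in those cells, while the median member stood at 0.605% and 1.46%. In cDC1 cells, a dendritic cell type, Nkg7 was at 13.5 CPM in 20 Ythdf2 KO cells and 104.3 CPM in 25 WT cells, or 0.725% and 5.51% of the NK level.

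The share of cells with a member was compared after each barcode was thinned to 1000 UMIs, since depth differed between gates. In NK cells Gzmb was found in 81.5% of Ythdf2 KO and 86.2% of WT barcodes, and without thinning in 95.1% and 97.7%. Monocyte/macrophage barcodes showed Gzmb in 4.61% and 9.30%, at median depths of 4875 and 4208 UMIs before thinning. Nkg7 was found in 81.2% and 81.7% of NK barcodes (96.5% and 98.8% without thinning), against 2.45% and 3.74% of monocyte/macrophage barcodes. The pore-forming Prf1 was found in 63.6% and 63.1% of NK barcodes (90.0% and 93.2% without thinning), against 1.27% and 2.19% in monocytes and macrophages. Gzma was found after thinning in 78.3% of Ythdf2 KO (interval 76.0% to 80.4%) and 84.3% of WT NK barcodes (82.8% to 85.8%), and in 89.6% and 95.3% without thinning, against 5.33% and 10.8% of monocyte/macrophage barcodes.

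Within the Gzmc to Gzmg group the shares differed from gene to gene, and since capture per transcript is not known for each gene they describe detection and not abundance. Gzmc was found in 67.2% of Ythdf2 KO and 72.7% of WT NK barcodes, Gzmd in 40.1% and 40.5%, Gzme in 32.5% and 33.0%, Gzmf in 19.8% and 22.0%, and Gzmg in 18.7% and 15.9%. The unthinned shares were 78.6% and 85.7% for Gzmc, 53.7% and 57.1% for Gzmd, 47.2% and 51.3% for Gzme, 36.4% and 43.2% for Gzmf and 30.0% and 31.1% for Gzmg. Monocyte/macrophage barcodes held Gzmc in 7.89% and 14.4%, Gzmd in 3.31% and 5.49%, Gzmf in 4.49% and 6.94% and Gzmg in 1.96% and 2.21%. The NK shares of all 5 genes were above these. Gzmf and Gzmg were thus missing from most NK barcodes at this depth even though their pooled levels were 6262 and 5149 CPM for Gzmf and 3048 and 1911 CPM for Gzmg.

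That contrast comes from a few barcodes. The 10% of NK barcodes with the most UMIs of Gzmf held 93.9% of all Gzmf UMIs in the Ythdf2 KO library and 91.0% in the WT library, and for Gzmg the figures were 93.8% and 94.6%. The top 10% held 67.7% and 66.8% of Gzmd, 42.0% and 42.5% of Gzmc, 40.1% and 37.9% of Prf1 and 26.5% and 26.4% of Nkg7. The highest Gzmf barcode reached 128352.6 CPM in Ythdf2 KO and 129696.9 CPM in WT NK cells, while the median NK barcode had 0 CPM in both. For Gzmc the median barcode was at 5608 and 4922 CPM. At 1000 UMIs per barcode the variance of Gzmf was 44.3 and 41.0 times its mean, against 1.95 and 1.75 times for Prf1. By the share in the top 10%, Nkg7 was the least concentrated of the members set out here and Gzmf and Gzmg the most, in both libraries.

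Counting how many of the 5 genes from Gzmc to Gzmg a barcode held shows the same spread cell by cell. In NK cells 28.4% of Ythdf2 KO and 23.2% of WT barcodes held none of them, 27.6% and 28.7% held 1, and 9.64% and 7.94% held all 5. CD8 T barcodes held none in 51.0% and 59.6% and all 5 in 3.31% and 0.685%, the last being 1 of 146 barcodes. Other T barcodes held none in 58.6% and 56.5% and all 5 in 3.29% and 2.27%. NK barcodes without any granzyme and without Prf1 made up 3.66% (interval 2.75% to 4.77%) in Ythdf2 KO and 1.16% (0.771% to 1.67%) in WT, against 16.6% and 18.5% of CD8 T barcodes and 25.3% and 22.3% of other T barcodes. This count was not made for monocyte/macrophage barcodes, and no background was taken off these shares. In that gate Gzmc to Gzmg took 0.0159% of UMIs in the Ythdf2 KO and 0.0302% in the WT library. All members together took 0.0272% and 0.0539%. The part of this background in the differences between libraries was not tested.

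**Figure D2:**
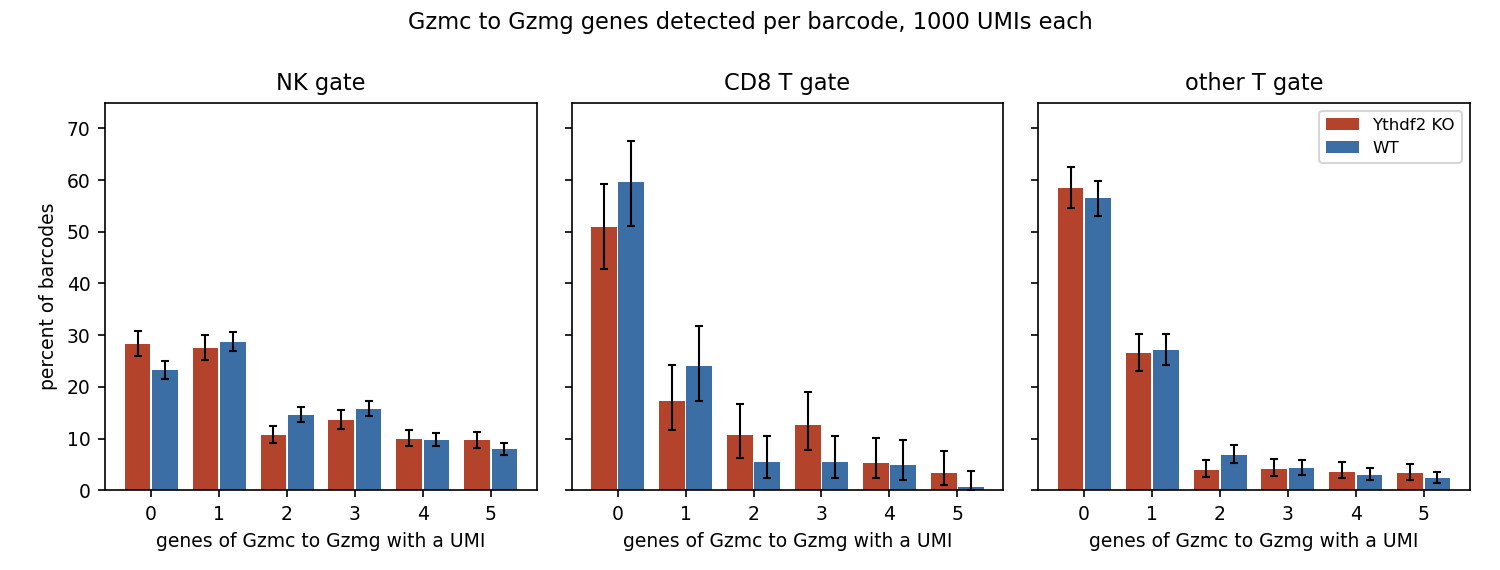
Percent of barcodes (vertical axis) that held 0 to 5 of the genes Gzmc, Gzmd, Gzme, Gzmf and Gzmg (horizontal axis) after thinning to 1000 UMIs, in the NK, CD8 T and other T gates, Ythdf2 KO to the left of WT, with exact 95% binomial intervals as bars. NK barcodes are spread over all counts, whereas over 50% of CD8 T and other T barcodes held none. No background was taken off.

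The group was nested in NK cells. Of the NK barcodes with Gzmd, 96.7% in Ythdf2 KO and 96.4% in WT also held Gzmc. Gzmd was found in 57.7% and 53.8% of barcodes with Gzmc but in only 4.08% and 5.30% of barcodes without it. Gzme barcodes held Gzmd in 89.0% and 87.3%, and Gzmg barcodes held Gzmd in 88.7% and 89.1%, against 29.0% and 31.4% of barcodes without Gzmg. Gzmc was thus the broad member of the group, with Gzmd and Gzme inside it and Gzmf and Gzmg in a smaller set. Gzmf barcodes held Gzmc in 91.1% and 93.0%. In CD8 T cells Gzmc was found in 69.2% of 39 Ythdf2 KO and 75% of 20 WT barcodes that held Gzmd. Gzmc was also rarer without Gzmd there, in 23.2% and 19.8% of barcodes, against 47.5% and 56.5% in NK cells. The lower shares with Gzmd thus do not by themselves show a looser nesting.

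Across NK barcodes thinned to 2000 UMIs (1375 Ythdf2 KO and 2346 WT) the members fell into a pair of blocks, given here as a description, since the barcodes of a library share its preparation and depth was set equal. Gzmd and Gzme had the closest correlation of log counts, at r = 0.87 in Ythdf2 KO and 0.83 in WT. Gzmc correlated with Gzmd at 0.66 and 0.63, and Gzmf with Gzmg at 0.66 and 0.59. The other block held Gzma, Gzmb, Prf1 and Nkg7, with Gzma and Gzmb at 0.46 and 0.40, Gzmb and Prf1 at 0.42 and 0.38, and Gzma and Nkg7 at 0.47 and 0.27.

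Between the blocks most values were near 0 or below it, and Prf1 came closest to crossing over, at 0.27 in Ythdf2 KO and 0.20 in WT with Gzmc. Prf1 was no closer to Nkg7 of its own block, at 0.27 and 0.18, so its place in that block rests on Gzma and Gzmb. Gzmb and Gzmc, whose starts lie 27.6 kb apart, correlated at 0.11 in Ythdf2 KO and 0.08 in WT, and Nkg7 and Gzmd at -0.18 and -0.11. Distance alone did not order the pairs within the group: Gzmf and Gzmc are 23.2 kb apart and correlated at 0.34 and 0.33, while Gzmd and Gzmc are 102 kb apart. Gzmd and Gzme, which are 12.0 kb apart and have the most alike transcripts (90.4% identical) and promoters (93.4%), also had the highest r. The blocks held less sharply in T cells. Gzma and Gzmc had r = -0.10 and -0.12 in NK cells but 0.51 in 562 Ythdf2 KO and 0.58 in 782 WT other T barcodes, where cells with and without NK receptor genes are pooled.

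**Figure D3:**
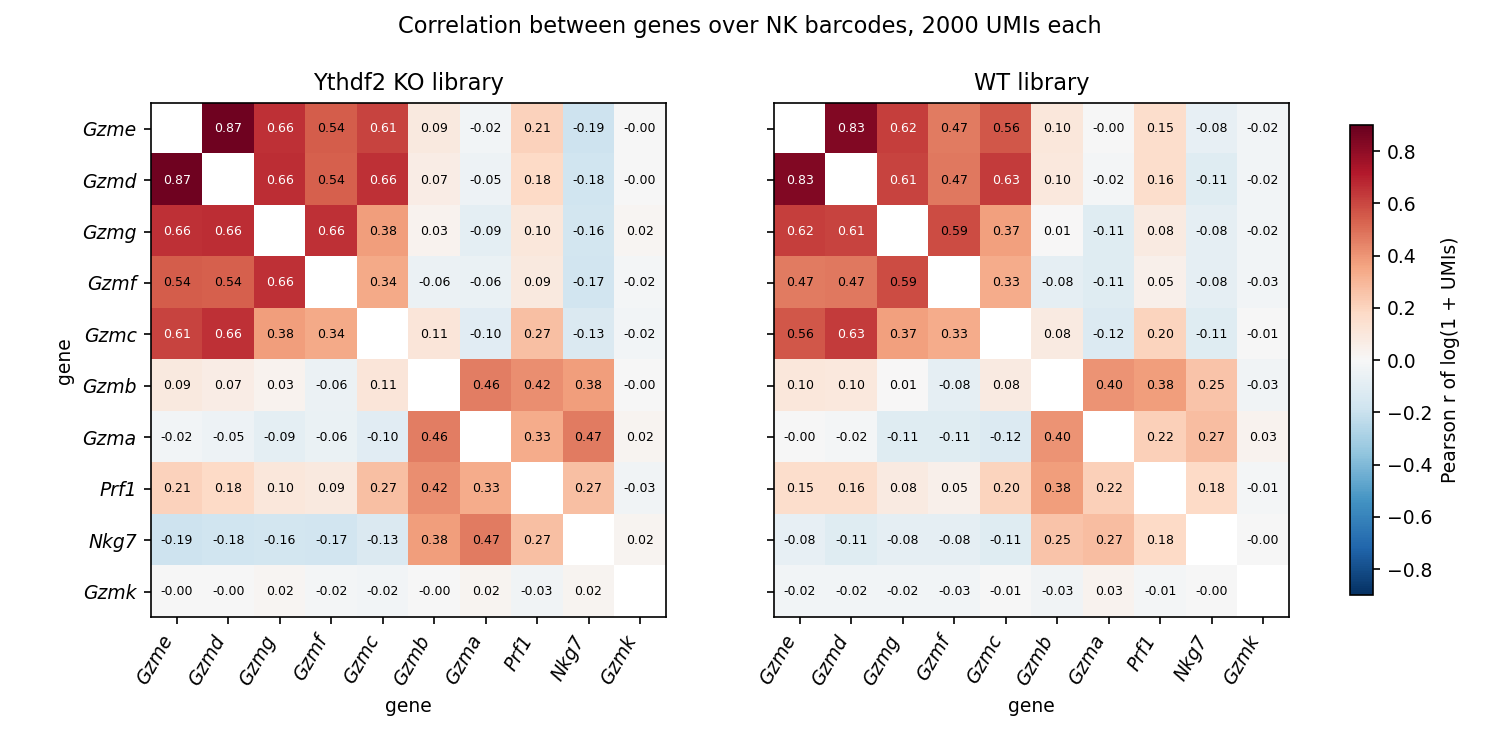
Pearson r of log(1 + UMIs) between each pair of members over NK barcodes thinned to 2000 UMIs, with the Ythdf2 KO library on the left and the WT library on the right. Gzme, Gzmd, Gzmg, Gzmf and Gzmc form a block of positive values, up to 0.87 and 0.83 for Gzmd with Gzme, and Gzmb, Gzma, Prf1 and Nkg7 form a second one. Prf1 is also positive with Gzmc, at 0.27 and 0.20.

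The genes most like each member over the same NK barcodes were ranked among 3893 genes by r averaged over both libraries, with the members themselves left out of the names given. The summed Gzmc to Gzmg count was most like Spp1, the gene of the secreted protein osteopontin (0.625), followed by Ifitm2 (0.457), AA467197 (0.411), S100a4 (0.371) and S100a6 (0.357). It was least like Ccl5 (-0.539), Btg1 (-0.486) and Ccl4 (-0.423), of which Ccl5 and Ccl4 encode chemokines. Among genes that are no members, Gzma was most like AW112010 (0.311), Fcer1g (0.285) and Ccl5 (0.260), so Ccl5 stood on opposite sides for Gzma and for the Gzmc to Gzmg group. Outside the members, Gzmb was most like Actb (0.295), Fcer1g (0.288) and Irf8 (0.282), Prf1 most like Actb (0.285), Tnfrsf9 (0.274) and Ctsd (0.221), and Nkg7 most like AW112010 (0.381), Tyrobp (0.355) and Fcer1g (0.335). By the same measure Gzma had 0.431 with Gzmb, and Gzmb had 0.398 with Prf1. For Gzma, Gzmb, Prf1 and Nkg7 the values with genes outside the members were weak, and none passed 0.381. Those for the Gzmc to Gzmg sum were stronger, led by Spp1 and Ccl5. For Gzmk, with 13 and 27 UMIs in NK cells, no gene passed an r of 0.0863.

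NK cells were then split by UMIs of integrin genes, Itga1 and Itga2, of which Itga1 (CD49a) is known from tissue-resident innate lymphocytes and Itga2 (CD49b) from conventional NK cells of the mouse. Cells with UMIs of both genes are not described here. The summed Gzmc to Gzmg level was 49727.2 CPM in 253 Ythdf2 KO and 41201.1 CPM in 623 WT cells with Itga1 only, 18046.9 and 14016.1 CPM in cells with neither, and 14874.0 and 10829.5 CPM in 140 and 225 cells with Itga2 only. Gzma ran the other way, at 6635 and 7398 CPM with Itga1 only and 10953.1 and 9380 CPM with Itga2 only. Prf1 differed little, at 1583 and 1632 CPM against 1463 and 1568 CPM. The share of cells with any of Gzmc to Gzmg, at 1000 UMIs each, was 95.2% and 96.0% with Itga1 only and 52.9% and 59.6% with Itga2 only. Finding an Itga1 UMI is easier in a deeper barcode, and the median depth was 15525 and 14311 UMIs with Itga1 only and 5520 and 6119 UMIs with Itga2 only. In the Itga1 group Gzmc was at 15182.7 CPM in Ythdf2 KO and 15976.9 CPM in WT, while Gzmf was at 14592.6 and 10533.1 CPM and Gzmg at 7073 and 4080 CPM.

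**Figure D4:**
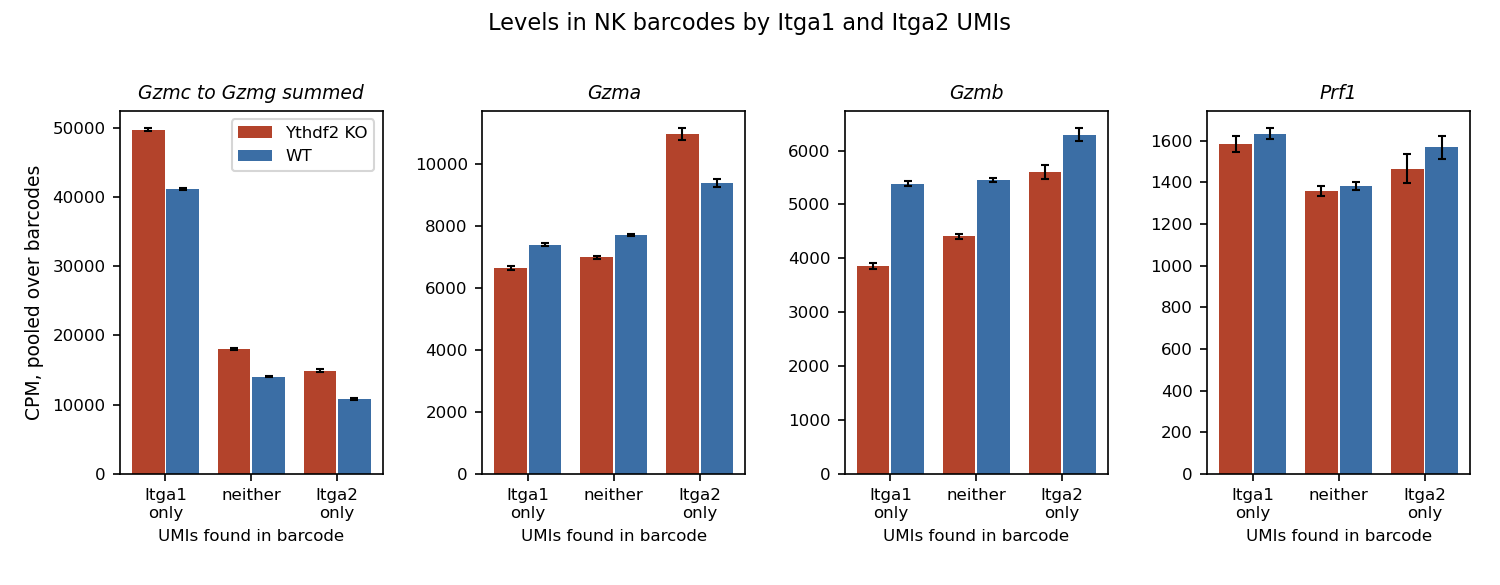
Pooled level in CPM (vertical axes, each from 0) of the summed Gzmc to Gzmg genes, Gzma, Gzmb and Prf1 in NK barcodes with Itga1 UMIs only, with neither gene, and with Itga2 UMIs only, Ythdf2 KO to the left of WT, with exact 95% Poisson intervals as bars. Barcodes with UMIs of both genes are not drawn. Among the groups drawn, the Gzmc to Gzmg sum is highest in the Itga1 group of both libraries and Gzma is highest in the Itga2 group.

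Eomes, a transcription factor of killer lymphocytes, gave a further split. NK cells with an Eomes UMI had a Gzmc to Gzmg sum of 33058.6 CPM in Ythdf2 KO and 25541.7 CPM in WT, and cells without one had 15468.5 and 16780.2 CPM. The Ythdf2 KO library was thus the higher one in cells with an Eomes UMI and the lower one in cells without. Median depth was 11038 and 11630 UMIs with an Eomes UMI and 6585 and 6326 UMIs without one. Dividing cells, taken by a Mki67 or Top2a UMI, had 27367.0 and 23664.3 CPM of the sum, close to the 28224.5 and 23868.4 CPM of the rest. Nkg7 was lower in the dividing NK cells, at 1433 and 1628 CPM against 2362 and 2157 CPM, and their median depth was 14821 and 14482 UMIs against 6456 and 7333 UMIs.

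In CD8 T cells the members followed Havcr2, the gene of the inhibitory receptor TIM-3. Cells with a Havcr2 UMI had Prf1 at 1033 CPM in Ythdf2 KO and 1139 CPM in WT, against 392.0 and 346.8 CPM in cells without one. Gzmb was at 5130 and 4335 CPM with Havcr2 and 2861 and 2459 CPM without it, and the Gzmc to Gzmg sum at 13406.8 and 8947 CPM against 5800 and 3379 CPM. Gzma ran against the rest, at 717.3 and 1283 CPM with Havcr2 and 1336 and 1728 CPM without it. Cells with a Havcr2 UMI were deeper, at medians of 14180.5 and 13912.5 UMIs against 7083 and 6258 UMIs. Of the Gzmk UMIs, 33 of 33 in Ythdf2 KO and 43 of 45 in WT lay in cells without a Tcf7 UMI. The cells with a Tcf7 UMI numbered 37 and 48. After thinning, only 2 Ythdf2 KO and 4 WT CD8 T barcodes held Gzmk. Thinning drops most UMIs of a barcode, so these counts do not say how many cells held the Gzmk UMIs. UMIs of the same cell are not separate cases, and a relation of Gzmk to Tcf7 was not tested.

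Ythdf2 KO was compared with WT within each gate by the ratio of pooled CPM. A member entered the count where it averaged at least 10 CPM with at least 25 UMIs over both libraries, which left out Gzmk in the NK and other T gates. In NK cells 1 of 9 measured members was at least 1.5-fold higher in Ythdf2 KO, against 2.17% of all 6993 genes tested, and 0 of 9 were at least 1.5-fold lower, against 0.972%. The member past that fold was Gzmg, at 3048 CPM in Ythdf2 KO and 1911 CPM in WT (ratio 1.595, interval 1.576 to 1.615). The median log2 ratio was 0.08 over the 9 members and -0.02 over all genes tested.

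With UMIs pooled, the direction in NK cells differed between the blocks of members. All 5 genes of the Gzmc to Gzmg group had ratios above 1: 1.057 for Gzmc, 1.159 for Gzmd (4583 and 3955 CPM), 1.271 for Gzme (2352 and 1851 CPM), 1.216 for Gzmf and 1.595 for Gzmg. Gzma (0.935), Gzmb (0.803), Prf1 (0.972) and Nkg7 (0.987) had ratios below 1. Of these, Gzmb was 4402 CPM in Ythdf2 KO and 5479 CPM in WT NK cells, with an interval of 0.796 to 0.811, and the interval for Nkg7 reached from 0.973 to 1.001. The composition of the granzyme UMIs moved accordingly: Gzmb made up 11.2% in Ythdf2 KO and 14.8% in WT NK cells, and Gzmg 7.73% and 5.17%. Weighting every NK barcode equally, in place of pooling their UMIs, gave ratios of 1.11 for Gzma, 1.04 for Prf1, 1.14 for Nkg7 and 1.48 for Gzmg. Gzmd, Gzme and Gzmf had 1.10, 1.14 and 1.02, each closer to 1 than with UMIs pooled. Under that weighting Gzmb alone stayed below 1, at 0.922, and Gzmg was no longer past the fold. The Nkg7 ratio turned above 1 under 5 of 13 alternatives and that of Prf1 under 2 of 13.

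In CD8 T cells 3 of 10 measured members were at least 1.5-fold higher in Ythdf2 KO, against 4.66% of 7332 genes, and 1 of 10 was at least 1.5-fold lower, against 11.3%. The higher ones were Gzme (856.6 and 484.9 CPM, ratio 1.766), Gzmf (3971 and 1791 CPM, ratio 2.217) and Gzmg (1054 and 434.7 CPM, ratio 2.424). Gzmg rested on few cells: 81.8% of its UMIs in Ythdf2 KO and 72.4% in WT sat in 1 barcode, and thinned barcodes held it in 3.31% and 6.16%. Without the top barcode of each library the Gzmg ratio was 1.57, those of Gzme and Gzmf were 2.06 and 2.44, and that of Gzmd passed the fold at 1.62. With cells that held any monocyte or macrophage UMI left out, which kept 74 Ythdf2 KO and 54 WT cells, Gzmg was far lower in Ythdf2 KO, at a ratio of 0.0729, Gzmd had a ratio of 0.547, Gzme was no longer past the fold at 1.34, and Gzma and Gzmk had ratios of 0.834 and 1.25. The same cells gave higher ratios for Gzmc, which passed the fold at 1.88, and for Gzmf, at 2.85. Gzmb, at 4327 CPM in Ythdf2 KO and 3426 CPM in WT CD8 T cells, had a ratio of 1.263 (1.222 to 1.306), and Gzmc one of 1.352.

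Gzma was the member past the fold in the other direction, with 936.4 CPM in Ythdf2 KO and 1499 CPM in WT CD8 T cells (ratio 0.625, interval 0.588 to 0.664). It was found in 16.6% and 28.8% of CD8 T barcodes after thinning (46.1% and 53.1% without), with intervals of 11.0% to 23.5% and 21.6% to 36.8%. The Gzma ratio was 0.966 with each barcode weighted equally and 0.743 with no limit on monocyte and macrophage UMIs. Prf1 was found in 39.7% of Ythdf2 KO and 25.3% of WT CD8 T barcodes after thinning (75.7% and 59.9% without), while its pooled ratio was 1.068 with an interval of 0.992 to 1.15. The Gzmk ratio of 0.683 had an interval of 0.423 to 1.095 and was not resolved at this depth. The mature dendritic cell markers Ccr7, Ccl22 and Fscn1 were at 130.3, 9.46 and 52.6 CPM in the Ythdf2 KO and at 270.1, 56.4 and 100.4 CPM in the WT CD8 T gate, and their part in these ratios was not tested.

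In other T cells 0 of 9 measured members were at least 1.5-fold higher or lower in Ythdf2 KO, against 1.15% of 7282 genes higher and 2.02% lower. Gzmf came nearest, with 3154 CPM in Ythdf2 KO and 2122 CPM in WT (ratio 1.486, interval 1.452 to 1.521), and then Gzmg with 1123 and 786.0 CPM (1.428). Gzma (0.905) and Gzmb (0.948) were below 1, while Gzmc (1.024), Gzmd (1.195), Gzme (1.153), Prf1 (1.074) and Nkg7 (1.139) were above. Gzmf and Gzmg sat in few cells here too, with 99.5% and 99.4% of the Ythdf2 KO UMIs in the top 10% of barcodes. With cells that held any monocyte or macrophage UMI left out, the ratios of Gzmf and Gzmg turned to 0.828 and 0.914. Gzmb turned to 1.09 with barcodes weighted equally, and Prf1 to 0.977 with no limit on monocyte and macrophage UMIs. The median log2 ratio was 0.19 over the 9 members and -0.02 over all genes tested. By part of the gate, the members' median was 1.60 in T cells outside the named classes (162 Ythdf2 KO and 227 WT cells). CD4 T cells (32 and 51) had 0.95, regulatory T cells 0.28, T cells with NK receptor genes 0.17 and gamma-delta T cells 0.14. The medians over all genes in these parts ran from -0.04 to 0.05. In WT cells outside the named classes, Gzme (30.2 CPM), Gzmf (81.0), Gzmg (31.3) and Prf1 (29.2) stood near the monocyte/macrophage background. That background was 26.3, 63.6, 24.0 and 20.0 CPM in the WT library. Gzma, Gzmb, Gzmc, Gzmd and Nkg7 stood above theirs. In WT CD4 T cells Gzmf, at 36.6 CPM, was below its background. The medians of 1.60 and 0.95 thus include ratios over WT levels near or below background. In gamma-delta T cells Gzmf had a ratio of 1.923 and Gzmg one of 0.318. No alternatives were run for these parts.

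**Figure D5:**
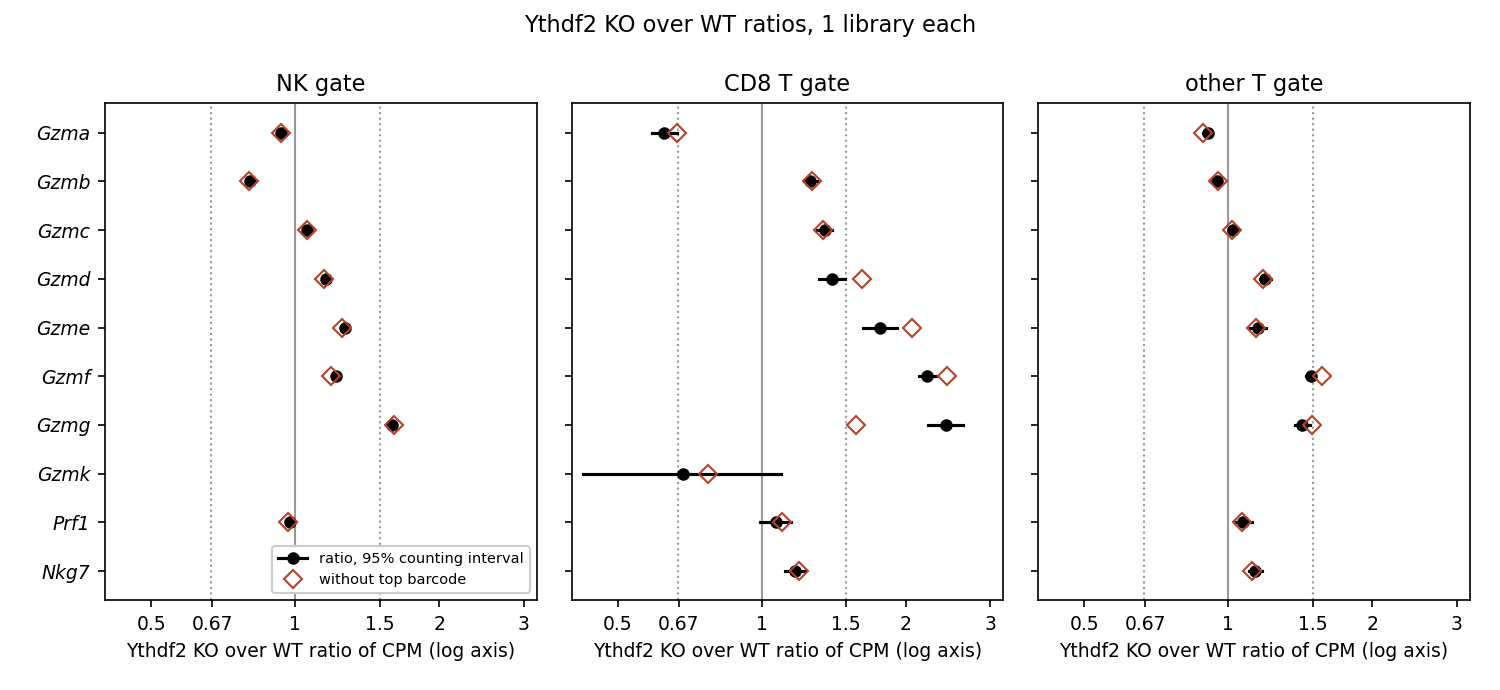
Ythdf2 KO over WT ratio of pooled CPM (horizontal log axis) for each measured member in the NK, CD8 T and other T gates, with exact 95% counting intervals as lines, 1.5-fold either way as dotted lines, and the ratio without the top barcode of each library as open diamonds. Gzmg leads in NK cells at 1.595, and in CD8 T cells its ratio is 2.424 with all barcodes and 1.57 without the top ones.

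Other genes of the granule pathway and transcription factors of killer lymphocytes were read from 2 lists. Of the 20 granule and killing genes 18 were measured in NK cells, and 0 were past 1.5-fold in either direction. Srgn, the proteoglycan that packs granzymes, was at 1392 CPM in Ythdf2 KO and 1330 CPM in WT NK cells, Serpinb9, an inhibitor of granzyme B, at 547.4 and 558.0 CPM, and Ctsc, the protease that activates granzymes, at 91.5 and 82.3 CPM. In CD8 T cells 0 of 19 were past the fold upward and 1 downward, which was Lamp1, a granule membrane protein, at 101.4 and 156.2 CPM (ratio 0.649, interval 0.538 to 0.783). In other T cells 0 of 18 were past it. Among the 11 transcription factors 0 were past the fold in NK cells and 0 in other T cells. Runx3 stood at 407.9 CPM in Ythdf2 KO and 578.5 CPM in WT NK cells (ratio 0.705). In CD8 T cells 2 of 11 were at least 1.5-fold lower, Eomes at 26.8 and 48.5 CPM (ratio 0.553, interval 0.383 to 0.790) and Tcf7 at 35.7 and 55.8 CPM (0.64, interval 0.463 to 0.88), where 11.3% of all genes tested were past the same fold. The median log2 ratio of the granule list was 0.02 in NK cells, -0.05 in CD8 T cells and 0.04 in other T cells, close to the -0.02, -0.03 and -0.02 of all genes.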

How the data were processed

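The authors deposited 1 matrix of raw UMI counts per library, written by Cell Ranger 6.1.1 per the file headers, whereas version 5.0.1 of it stands, beside mm10 and Seurat 4.0.4, in the processing notes of the submitters. No normalized values were used. Barcodes with at least 500 UMIs, at least 200 genes and at most 10% mitochondrial UMIs were kept. Scrublet in scanpy 1.11.5 marked only 0.0442% of Ythdf2 KO and 0% of WT barcodes on its own threshold, so the 8% with the highest doublet scores were removed from each library, and doublets may remain. Gates asked for at least 2 marker UMIs, and those for lymphocytes for under 0.1% monocyte and macrophage UMIs. Levels are pooled counts per 1000000 UMIs of a gate (CPM), with exact Poisson intervals (95%). Shares have exact binomial intervals after thinning to 1000 UMIs, which left out barcodes below that. Ratios have exact conditional intervals. UMIs at the transcript's 5′ end are not scaled by length, so levels were not ranked between genes. The intervals came from scipy 1.17.1, run with pandas 2.3.3 and numpy 2.4.6 under Python 3.11.15, and matplotlib 3.10.9 drew the plots. The ratio step was tested on pooled counts simulated with Poisson noise alone, which leaves out the spread between barcodes.

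Members, gene lists, gates and splits were chosen with earlier results of these data known. All 10 members were named. From the 20 granule genes and 11 transcription factors, those past 1.5-fold and up to 4 others per list were named. Of the genes most like a member, the 5 highest were named for the Gzmc to Gzmg sum and the 3 highest for each other member. Alternatives changed the marker minimum, filters, monocyte and macrophage limit, doublet removal, scaling, weighting and thinning depth.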

Additional observations from a re-analysis of the deposited data

Results flagged for a closer look

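The Ythdf2 KO over WT ratio of Gzmb lay above 1 in CD8 T cells, at 1.26, and below 1 in NK cells, at 0.803, and in other T cells, at 0.948. The ratio of Prf1 lay above 1 in other T cells, at 1.07, and below 1 in NK cells, at 0.972. The Prf1 ratio turned above 1 in NK cells under 2 of 13 alternatives, up to 1.09, and below 1 in other T cells under 1 of 12, at 0.977. The Gzmb ratio kept its side under every alternative run in NK and CD8 T cells and turned to 1.09 in other T cells with barcodes weighted equally. These values drew attention because the single Ythdf2 KO library stood on opposite sides of the single WT library in different cell gates. With 1 library per genotype the differences between gates were not tested.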

How the results depend on the processing

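Of 74 alternatives to the counts of members past 1.5-fold, 58 gave the same count or one within 1.5 times of it and 16 did not. In NK cells the count of higher members was 2 with no monocyte/macrophage UMI allowed and 0 with barcodes weighted equally. In CD8 T cells the count of lower members was 2 with 3 marker UMIs, without doublet removal and with a mitochondrial limit of 5% (Gzma and Gzmk in each), 2 with no monocyte/macrophage UMI allowed (Gzmd and Gzmg), and 0 with barcodes weighted equally. In other T cells the count of higher members was 2 with the mitochondrial limit of 5%, and 1 with 3 marker UMIs, with no monocyte/macrophage UMI allowed, with median-ratio scaling, with the monocyte/macrophage level subtracted, without barcodes seen in both libraries, and without each member's top barcode, an alternative chosen after seeing the data. The count of lower members there was 1 with no monocyte/macrophage UMI allowed and 1 with no filter on low levels. Gzmg in CD8 T cells turned to a log2 ratio of -3.78 with no monocyte/macrophage UMI allowed, in 74 Ythdf2 KO and 54 WT cells, and the cause was not tested. The direction held under every alternative run for 6 of 9 members in NK cells, 7 of 10 in CD8 T cells and 5 of 9 in other T cells. Gzmb in NK cells ranged from 0.800 to 0.922 and Gzmg from 1.48 to 2.06. Allowing 1 T gene UMI applied to the NK gate alone. No paired analysis was possible because each genotype has 1 library, and none could be left out. Depth limits Gzmk most, with 33 and 45 UMIs in CD8 T cells.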
